A study of Mus musculus with 12 samples.

Results

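The genes for voltage-gated sodium channels, voltage-gated calcium channels, hyperpolarization-activated (HCN) channels and transient receptor potential (TRP) channels were examined in 3 untreated mouse cell lines. Members were chosen by symbol, as genes whose names begin with Scn, Cacna, Cacnb, Cacng, Hcn, Trpa, Trpc, Trpm or Trpv followed by a number. Of the 68 symbols in the reference table that fit this rule, 58 had probes, out of 17277 genes with a symbol on the array. Trpc4ap fits by its name only, since it encodes a protein that associates with a TRPC channel and is not itself a channel. Cacna1i, Cacna1s, Cacng6, Hcn4, Scn1a, Scn2a, Scn3a, Scn9a, Trpc2 and Trpc5os are not analysed here. RNA came from 4 separately grown plates each of cells labelled AtT20 (a pituitary corticotroph tumor line), BV2 (an immortalized microglial line) and N18 (a neuroblastoma line). All 3 are immortalized lines grown in the same serum-containing medium under basal conditions, and 1 single-color array was hybridized per plate.

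Voltage-gated sodium channels carry the rising phase of the action potential and are made of 1 large pore subunit with auxiliary beta subunits. Voltage-gated calcium channels admit calcium on depolarization through a pore (alpha1) subunit, whose delivery to the membrane and gating are set by beta and alpha2delta subunits. The proteins named gamma subunits include a muscle calcium channel subunit and the TARPs, which accompany AMPA-type glutamate receptors. HCN channels open on hyperpolarization and give pacemaker currents, and most TRP channels are cation channels opened by lipids, heat, irritants, stretch or messengers inside the cell. Neurons and neuroendocrine cells are known for their sodium and calcium channels, and microglia for several TRP channels.

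Levels are log2 values above the zero of each plate, which is the mean of 10 seminal proteins there. A gene was called above the threshold in a line when its mean level over 4 plates exceeded 2 SD of the seminal proteins. The threshold lay at 0.74 ± 0.10 in N18, 0.56 ± 0.15 in BV2 and 0.37 ± 0.11 on the plates labelled AtT20 (SD over 4 plates). The 3 thresholds differ, so a gene may be called in 1 line at a level that would not be called in another. Since probes bind with unequal strength, no gene's level was tested against that of another.

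The cell labels were set against marker genes. In BV2, 8 of 13 microglial genes were above the threshold, with Csf1r at 4.70 ± 0.39, Adgre1 at 4.27 ± 0.36 and Spi1 at 4.06 ± 0.29. Aif1, Cx3cr1, C1qa, C1qb and C1qc were below it, at 0.30 to 0.55, beside 0.39 to 0.63 in N18. In N18, 17 of 19 neuroblastoma genes were above the threshold, with Prph at 5.42 ± 0.19 and Gap43 at 5.05 ± 0.17. Nefl at -0.09 ± 0.08 and Snap25 at 0.04 ± 0.12 were not. Markers of the other lineages were also called in both lines. All marker counts are to be read against the shares of all genes and targets above the threshold. These were 55.4% in N18, 53.3% in BV2 and 35.0% on the plates labelled AtT20. N18 had 3 of the 13 microglial genes (Itgam, Trem2 and Tyrobp, at 0.80 to 1.52) and 6 of 11 corticotroph genes above the threshold, among them the granule protein genes Chgb at 5.78 ± 0.24 and Scg2 at 3.98 ± 0.18. BV2 had 7 of the 19 neuroblastoma genes and 2 of the corticotroph genes, Tbx19 at 1.43 ± 0.16 and Pomc at 0.67 ± 0.12. The part of these genes in the channel differences was not tested. On the plates labelled AtT20, only 1 of 11 corticotroph genes was above the threshold (Pitx1), and the hormone precursor gene Pomc was at 0.29 ± 0.26 and Tbx19 at 0.02 ± 0.06. The mean level of the 11 corticotroph genes was 0.04 to 0.11 on these plates, while 10 of the 19 neuroblastoma genes and 1 of the 13 microglial genes were above the threshold. Nefl was the highest of the 19 there, at 4.46 ± 0.48. These plates are therefore called the plates labelled AtT20 throughout. Their probe intensities were also compressed, with an interquartile range of 0.38 to 0.78 against 1.28 to 1.73 in BV2 and 1.91 to 2.21 in N18 on the log2 scale. Of 11 muscle genes, 3 were above the threshold in N18, 7 in BV2 and 6 on the plates labelled AtT20, and of 7 fibroblast genes 4, 2 and 4. The arrays are printed several to a slide, and which plates shared a slide is not known, so slide and line cannot be told apart.

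Of the 58 channel genes, 24 were above the threshold in N18 (41.4%), 18 in BV2 (31.0%) and 21 on the plates labelled AtT20 (36.2%). Over all 25128 genes and targets the shares were 55.4%, 53.3% and 35.0%. The highest levels of called members reached 4.88 in N18, 3.85 in BV2 and 1.89 on the plates labelled AtT20, and the median level of called members was 2.22, 1.13 and 0.66. As these are bulk RNA measurements, fewer cells with a transcript and less of it per cell cannot be told apart. On every plate of the line 22 of the 24 genes in N18, 15 of the 18 in BV2 and 13 of the 21 on the plates labelled AtT20 were above that plate's own threshold. At least 2 probes were above the threshold for 21, 15 and 11 of them. Under all 8 alternative settings of the call, 14, 7 and 7 kept it.

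Above the threshold in all 3 lines were 11 genes: Cacna1f, Cacna1h, Cacna2d2, Cacnb1, Cacng3, Cacng7, Scn4a, Scn7a, Trpc4ap, Trpm2 and Trpv2. Called only in N18 were 9 genes, among them Cacna1c, Cacnb3, Cacng5, Cacng8, Hcn2, Scn3b, Scn8a and Trpm7. Called only in BV2 were 3 genes, among them Scn4b and Scn10a. Called only on the plates labelled AtT20 were 6 genes, Cacna1a, Cacna2d1, Cacnb2, Cacnb4, Trpc1 and Trpv1. BV2 and N18 shared 2 genes, among them Cacng1, while the plates labelled AtT20 shared Trpv4 and Trpv6 with BV2, and shared Cacna1b and Cacng4 with N18. The remaining 23 were called in no line. A call in 1 line alone is not a test of a difference between lines, which is given further on.

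**Figure D1:**
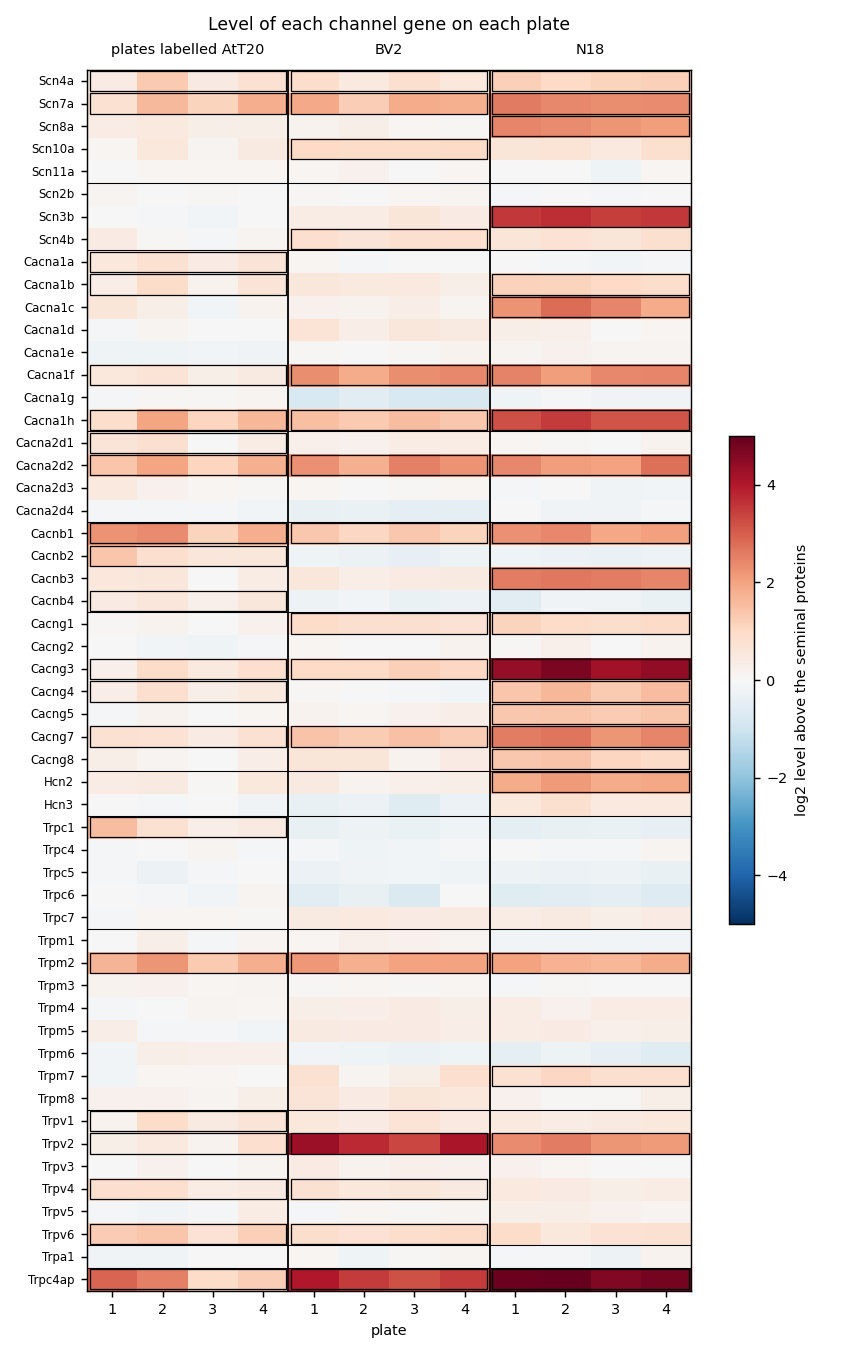
Log2 level above the seminal proteins (color) of 54 of the 58 channel genes (rows, grouped by subunit class with black lines between classes) on each of the 12 plates (columns). Black boxes mark the genes called above the threshold in a line. The darkest red rows are Trpc4ap in BV2 and N18, Cacng3 and Scn3b in N18, and Trpv2 in BV2.

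Upstream sequence is shown for 3 genes that mark the contrasts described here, Scn8a (higher in N18), Trpv2 (higher in BV2) and Trpc1 (higher on the plates labelled AtT20). Each line holds the 250 bases before the transcription start, 5′ to 3′ in the direction of the gene, from RefSeq on GRCm38.p6, with CG dinucleotides in capitals. The promoter table lists 2 starts for Scn8a, 3 for Trpv2 and 1 for Trpc1, and the window of the first listed start is shown. The Scn8a window lies at chr15:100870395-100870644 on the plus strand, that of Trpv2 at chr11:62574236-62574485 on the plus strand and that of Trpc1 at chr9:95750349-95750598 on the minus strand.
Scn8a: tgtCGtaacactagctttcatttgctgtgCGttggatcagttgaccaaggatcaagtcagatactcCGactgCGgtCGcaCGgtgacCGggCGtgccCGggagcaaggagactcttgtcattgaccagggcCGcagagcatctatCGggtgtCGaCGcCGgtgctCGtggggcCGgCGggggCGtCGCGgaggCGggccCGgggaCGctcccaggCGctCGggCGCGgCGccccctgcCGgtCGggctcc
Trpv2: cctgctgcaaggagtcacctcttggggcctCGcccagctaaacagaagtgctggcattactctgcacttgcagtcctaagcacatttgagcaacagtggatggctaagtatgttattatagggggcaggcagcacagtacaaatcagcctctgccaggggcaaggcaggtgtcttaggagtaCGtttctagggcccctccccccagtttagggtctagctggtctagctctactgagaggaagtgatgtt
Trpc1: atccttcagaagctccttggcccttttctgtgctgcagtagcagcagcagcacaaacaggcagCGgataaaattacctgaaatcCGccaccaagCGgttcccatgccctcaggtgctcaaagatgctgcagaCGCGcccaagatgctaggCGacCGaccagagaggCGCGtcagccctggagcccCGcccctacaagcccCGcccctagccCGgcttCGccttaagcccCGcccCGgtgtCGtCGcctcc
The windows shown held 30 CG dinucleotides for Scn8a, 17 for Trpc1 and 2 for Trpv2. They are sequences of the reference, and methylation was not measured.

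The promoter table held 58 windows for 44 of the members, each from 250 bases before to 50 bases after a start. Counted over the 250 bases before each start, their median was 7.5 CG dinucleotides and 56.2% G or C, against 6 and 52.4% over all 32851 windows. Many neuronal channel genes are known targets of REST, a repressor that binds the RE1 element, so 2 strings taken from the left and right parts of that element were searched on both strands. CAGCACC was in 0 of the 58 windows and in 7.14% of all windows. GACAGCG was in 2 of them, those of Cacnb1 and Trpm6 (3.45%), and in 3.38% of all windows. The 2 strings were counted separately, whether or not matches overlapped. Both together were in 0 windows of members and in 0.265% of all windows, and a match or its absence describes only these letters in these windows. The level of Rest itself was 1.99 ± 0.29 in N18, 2.11 ± 0.35 in BV2 and 0.64 ± 0.23 on the plates labelled AtT20 (SD, n = 4).

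Of the 6 sodium channel pore genes, 3 were above the threshold in N18, 4 in BV2 and 2 on the plates labelled AtT20. Counts here and in the classes below are to be read against the shares over all genes and targets (55.4%, 53.3% and 35.0%). Scn8a, which encodes a principal sodium channel of brain neurons, was at 2.44, 2.35, 2.22 and 2.08 on the 4 N18 plates. It was at 0.17, 0.29, 0.10 and 0.08 on the BV2 plates and at 0.38, 0.48, 0.28 and 0.29 on the plates labelled AtT20. On this scale the N18 plates stood apart from all 8 others, and all 3 probes were above the threshold there. Scn4a, the skeletal muscle sodium channel gene, was at 1.20, 1.00, 1.09 and 1.20 in N18, at 0.88, 0.51, 0.81 and 0.51 in BV2, and at 0.39, 1.33, 0.43 and 0.76 on the plates labelled AtT20. Scn10a, known from pain-sensing neurons, was at 0.94 ± 0.03 in BV2 and at 0.65 ± 0.13 in N18, where the higher threshold was not reached. Scn11a, also known from pain-sensing neurons, was in no line above the threshold, with means from -0.03 to 0.11.

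Scn7a, which encodes a sodium-sensing relative of these channels, was called in all 3 lines at 1.33 ± 0.48, 1.69 ± 0.30 and 2.42 ± 0.12 (AtT20, BV2, N18). The call rested on 1 of its 3 probes. That probe stood at 2.40, 2.96 and 3.76 in the same order, while the other two lay between -0.26 and 0.37. When probes were summarised by their median, Scn7a was above the threshold in no line.

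Among the sodium channel beta subunits, which modulate gating and act in cell adhesion, Scn3b was above the threshold in N18 only and Scn4b in BV2 only. Scn3b was at 3.54, 3.68, 3.44 and 3.54 on the N18 plates, at 0.35, 0.37, 0.59 and 0.42 on the BV2 plates and at -0.02, -0.08, -0.12 and 0.02 on the plates labelled AtT20. The 4 N18 plates lay far above the 8 others, and all 3 probes passed the N18 threshold. Scn4b was at 0.79 ± 0.10 in BV2 and at 0.69 ± 0.10 in N18, so that its call in BV2 alone goes with the lower BV2 threshold. Scn2b was near 0 in every line, from -0.05 to 0.07.

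Of the 8 calcium channel pore genes, 4 were above the threshold in N18, 2 in BV2 and 4 on the plates labelled AtT20. Cacna1c, the L-type pore gene of heart, smooth muscle and neurons, was at 2.24, 2.78, 2.42 and 1.85 in N18. It was at 0.23, 0.19, 0.32 and 0.15 in BV2 and at 0.60, 0.27, -0.15 and 0.18 on the plates labelled AtT20. Cacna1h, a T-type pore gene that opens at low voltage, was at 3.23, 3.49, 3.12 and 3.14 in N18, at 1.49, 1.31, 1.54 and 1.36 in BV2 and at 0.89, 1.97, 1.08 and 1.64 on the plates labelled AtT20. On this scale both genes were highest on all 4 N18 plates, with 3 probes above the threshold there. The Cacna1h call on the plates labelled AtT20 rested on 1 probe. After quantile normalization, Cacna1h on the plates labelled AtT20 differed from N18 by only -0.01.

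Cacna1a, the P/Q-type pore gene of presynaptic terminals, had the opposite order. It was at 0.51, 0.76, 0.40 and 0.63 on the plates labelled AtT20, at 0.08, -0.06, -0.03 and -0.02 in BV2 and at -0.03, -0.06, -0.16 and -0.04 in N18. Cacna1b, the N-type pore gene, was at 1.04 ± 0.11 in N18 and at 0.51 ± 0.33 on the plates labelled AtT20, where only 2 of 4 plates passed their own threshold. Cacna1f, the L-type pore gene known from the retina, was at 2.33, 1.87, 2.34 and 2.40 in BV2, at 2.47, 2.10, 2.41 and 2.42 in N18 and at 0.51, 0.68, 0.28 and 0.44 on the plates labelled AtT20. Its 3 probes disagreed, with 1 at 3.42 in BV2 and 3.66 in N18, another at 1.22 and 0.80, and the third at 0.04 and -0.05. Cacna1d, Cacna1e and Cacna1g, of the L, R and T types, were called in no line.

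Cacna2d2 was the alpha2delta gene above the threshold in every line, at 2.33 ± 0.34 in N18, 2.21 ± 0.33 in BV2 and 1.56 ± 0.40 on the plates labelled AtT20. In N18 this rested on 1 of 3 probes. Cacna2d1, the most widely expressed member of that class and a binding site of gabapentin, was at 0.66, 0.80, 0.04 and 0.38 on the plates labelled AtT20, and without plate 2 it was no longer called. Cacna2d3 and Cacna2d4 were called in no line.

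All 4 calcium channel beta subunit genes, whose products bring the pore to the membrane, were above the threshold in at least 1 line, and the lines differed in which. Cacnb3, common in neurons and smooth muscle, was at 2.56, 2.64, 2.58 and 2.44 in N18, at 0.56, 0.33, 0.42 and 0.45 in BV2 and at 0.54, 0.55, 0.00 and 0.36 on the plates labelled AtT20. Cacnb2, the main heart beta subunit, was at 1.38, 0.82, 0.56 and 0.58 on the plates labelled AtT20, at -0.21, -0.29, -0.41 and -0.27 in BV2 and at -0.20, -0.28, -0.32 and -0.24 in N18. Cacnb4, a brain beta subunit, was at 0.43, 0.55, 0.24 and 0.56 on the plates labelled AtT20, and its means in BV2 and N18 were -0.25 ± 0.10 and -0.32 ± 0.19. Neither gene overlapped between the plates labelled AtT20 and the other two lines. Cacnb1, the skeletal muscle beta subunit, was called in all lines, at 2.25, 2.35, 1.13 and 1.80 on the plates labelled AtT20, at 1.34, 1.03, 1.33 and 1.12 in BV2 and at 2.28, 2.41, 1.94 and 2.03 in N18. Its 2 targets on the array had the same order of lines for N18 over BV2, at 2.67 against 1.76 and at 1.66 against 0.65.

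Of the 7 genes named for gamma subunits, 6 were above the threshold in N18, 3 in BV2 and 3 on the plates labelled AtT20. Over all genes and targets the shares were 55.4%, 53.3% and 35.0% in that order. Cacng3, which encodes a TARP of cortical neurons, was at 4.41, 4.72, 4.18 and 4.43 in N18, at 0.98, 1.01, 1.19 and 1.04 in BV2 and at 0.27, 0.91, 0.50 and 0.84 on the plates labelled AtT20. Cacng4, another TARP, was at 1.38, 1.65, 1.30 and 1.55 in N18, at 0.05, 0.00, -0.07 and -0.13 in BV2 and at 0.34, 0.82, 0.31 and 0.49 on the plates labelled AtT20. Cacng5, Cacng7 and Cacng8, also of the TARP family, were at 1.35 ± 0.06, 2.47 ± 0.21 and 1.20 ± 0.23 in N18. In BV2 the 3 were at 0.20 ± 0.10, 1.36 ± 0.11 and 0.46 ± 0.20. On the plates labelled AtT20 they were at 0.04 ± 0.11, 0.66 ± 0.16 and 0.19 ± 0.16. Against the seminal proteins the mean of each of these 5 genes was highest in N18. On the quantile scale this did not hold for all of them. Cacng4 was higher on the plates labelled AtT20 than in N18 by 0.44 (limma, adjusted p = 0.00108). Only 2 of the 7 genes named for gamma subunits passed as higher in N18 than on those plates. Cacng8 did not pass the test between N18 and BV2 (0.29 ± 0.15, adjusted p = 0.141). Cacng1, the skeletal muscle gamma subunit, was at 0.98 ± 0.10 in N18 and 0.81 ± 0.09 in BV2, and Cacng2 was called in no line. Cacng1, Cacng4 and Cacng5 are neighbours on chromosome 11, and Cacng7 and Cacng8 on chromosome 7.

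Hcn2, a pacemaker channel gene of brain and heart, was at 1.87, 2.12, 1.84 and 1.93 in N18, at 0.45, 0.19, 0.23 and 0.27 in BV2 and at 0.36, 0.44, 0.07 and 0.52 on the plates labelled AtT20. On this scale all N18 plates were above all others. After quantile normalization, Hcn2 on the plates labelled AtT20 differed from N18 by only -0.17 and did not pass the limma test. Hcn3 was called in no line.

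**Figure D2:**
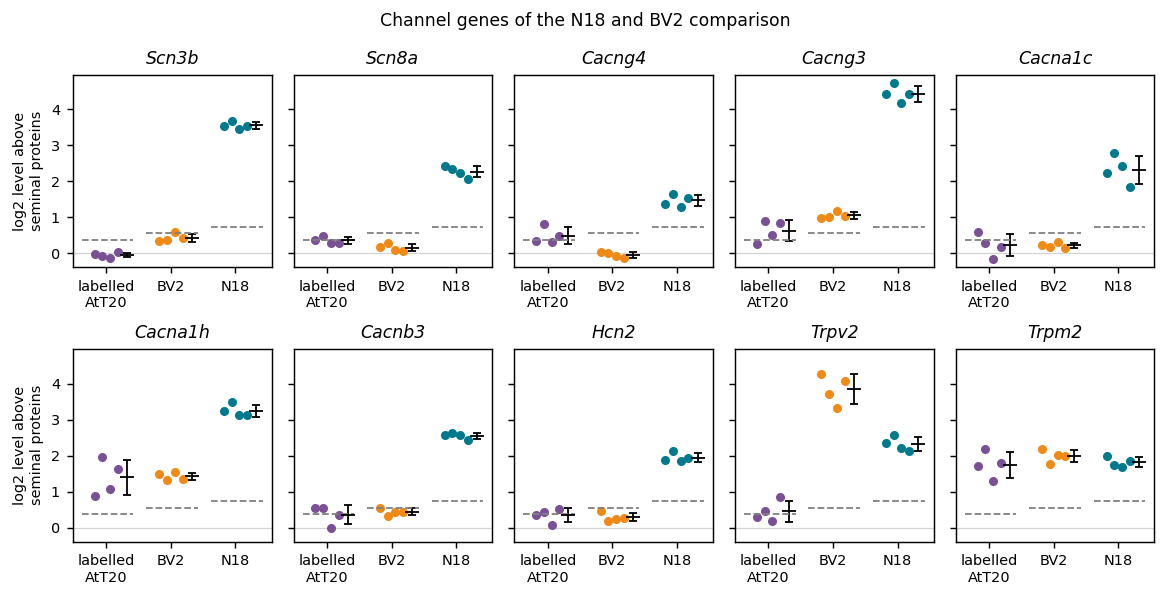
Log2 level above the seminal proteins of 10 channel genes on each plate (dots), with the mean and SD of the 4 plates (black) and the threshold of each line (dashed). The N18 plates lie above all others for the first 8 genes, the BV2 plates for Trpv2, and the 3 lines overlap for Trpm2.

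Of the 6 TRPC genes, which encode receptor- and store-linked cation channels, only Trpc1 was called, and only on the plates labelled AtT20. It was at 1.55, 0.74, 0.34 and 0.46 there, at -0.39, -0.26, -0.33 and -0.21 in BV2 and at -0.45, -0.36, -0.32 and -0.40 in N18. Plate 1 stood highest, and all 4 plates were above all 8 others. Trpc4, Trpc5, Trpc6 and Trpc7 had means from -0.56 to 0.44 over the 3 lines. Trpc4ap was at 4.91, 5.18, 4.64 and 4.77 in N18 and at 4.02, 3.48, 3.19 and 3.49 in BV2. On the plates labelled AtT20 it was at 2.90, 2.52, 0.90 and 1.24, with plates 1 and 2 above plates 3 and 4.

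Of the 8 TRPM genes 2 were called. Trpm2, a channel opened by ADP-ribose under oxidative stress, was at 1.70, 2.19, 1.30 and 1.80 on the plates labelled AtT20, at 2.19, 1.76, 2.03 and 2.00 in BV2 and at 2.00, 1.75, 1.68 and 1.86 in N18. The plates of the 3 lines overlapped on this scale. Its probes did not keep 1 order of lines, since 1 probe stood at 0.68 on the plates labelled AtT20 against 2.50 in BV2, and another at 2.91 against 2.32. Trpm7, which joins a channel for magnesium and calcium to a kinase, was at 0.86 ± 0.12 in N18. Trpm1, Trpm3, Trpm4, Trpm5, Trpm6 and Trpm8, the last opened by cold and menthol, were called in no line.

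Of the 6 TRPV genes, 1 was called in N18, 3 in BV2 and 4 on the plates labelled AtT20. Trpv2, a channel known from macrophages and other immune cells, was at 4.27, 3.71, 3.33 and 4.08 in BV2, at 2.35, 2.57, 2.22 and 2.12 in N18 and at 0.30, 0.48, 0.19 and 0.85 on the plates labelled AtT20. On this scale the 3 lines did not overlap, and all 3 probes were above the threshold in BV2 and N18. After quantile normalization, Trpv2 on the plates labelled AtT20 differed from N18 by only -0.2 and did not pass the limma test. Without plate 4 it was no longer called on the plates labelled AtT20. Trpv6, a calcium-selective epithelial channel, was at 1.29, 1.40, 0.72 and 1.17 on those plates, at 0.86, 0.74, 0.90 and 0.94 in BV2 and at 0.91, 0.53, 0.72 and 0.76 in N18. Trpv4, opened by osmotic swelling and warmth, was at 0.79, 0.85, 0.36 and 0.43 on the plates labelled AtT20, at 0.75, 0.55, 0.61 and 0.46 in BV2 and at 0.49, 0.42, 0.28 and 0.38 in N18. Against the seminal proteins both genes overlapped between lines. After quantile normalization, Trpv6 did not overlap between the plates labelled AtT20 and BV2 or N18, and was higher there by 1.5 and 1.86. Trpv4 did not overlap between those plates and N18, and was higher there by 1.38. Under the alternative settings the smallest of these 3 differences were 0.28, 0.41 and 0.22. Trpv1, the capsaicin receptor, was at 0.47 ± 0.06 in N18, 0.53 ± 0.10 in BV2 and 0.54 ± 0.31 on the plates labelled AtT20, and Trpv3, Trpv5 and the irritant receptor gene Trpa1 were called in no line.

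The question of how the channel genes differ between lines was addressed with limma across all 25128 genes and targets after quantile normalization of the 12 arrays, with p adjusted by Benjamini-Hochberg over all of them. Differences were also computed on 2 other scales, against the seminal proteins and with no normalization between arrays. Within a pair of lines these 2 scales differ by the same amount for every gene, so they are not separate checks of a difference. The median difference over all genes and targets of N18 minus BV2 was -0.06, 0.18 and 0.15 on the 3 scales in that order. For the plates labelled AtT20 minus BV2 it was 0.23, -0.28 and 1.08, and for the plates labelled AtT20 minus N18 0.25, -0.54 and 0.85. A difference in excess of this median is therefore given beside the main value, first on the quantile scale and then against the seminal proteins. The 3 comparisons share plates, so each is described by its own values.

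Between N18 and BV2, 15 of the 58 channel genes were higher in N18 (25.9%, against 19.0% of all genes and targets) and 10 were higher in BV2 (17.2%, against 21.9%). The median difference of the 58 was -0.08, beside -0.06 over all. The split of higher in N18 to higher in BV2 was 15 to 10 on the quantile scale. It was 22 to 5 against the seminal proteins and 18 to 1 without normalization. Among all genes and targets, 4775 were higher in N18 and 5495 in BV2 on the quantile scale. Against the seminal proteins these counts were 9754 and 3296, and without normalization 7714 and 1905. The split over all genes and targets thus also moved toward N18 on the other scales. All 15 genes higher in N18 were so, at an adjusted p under 0.05, on all 3 scales, and 13 of them were above the threshold in N18 (Cacna1g and Hcn3 were not). Of the 10 genes higher in BV2, only Trpv2 was so on all 3 scales. The other called genes of that direction were Cacna1f, Scn10a, Trpm2, Trpv4 and Trpv6, with differences from -0.64 to -0.33, and for Cacna1f the sign turned on the other scales (0.12 against the seminal proteins and 0.09 without normalization). Trpv4 missed the adjusted threshold when any 1 of 7 of the 8 plates was left out (adjusted p from 0.0674 to 0.0925), and Cacna1f did so without BV2 plate 3 (0.0895) or N18 plate 2 (0.0949).

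Cacng3 differed most, by 2.64 ± 0.18 (SE) on the log2 scale, a 6.24-fold higher value in N18 (limma, adjusted p = 3.65e-09, excess 2.70 and 3.20). Scn3b was higher by 2.28 ± 0.11 (adjusted p = 4.85e-11, excess 2.34 and 2.94), and since it was below the threshold in BV2 its fold is given as a bound, at least 4.5-fold. The difference of Scn8a was 1.34 ± 0.12 (adjusted p = 1.37e-07), at least 2.0-fold, and its excess was 1.40 and 1.93. Cacna1c and Cacnb3 were also each higher by 1.34, with adjusted p of 0.000274 and 1.83e-06, at least 2.0-fold and 2.3-fold. Cacna1h was 2.17-fold higher in N18 (1.12 ± 0.17, adjusted p = 6.27e-05). These 6 genes thus cover a sodium channel pore and a sodium channel beta subunit. They also cover an L-type and a T-type calcium channel pore, a calcium channel beta subunit and a TARP.

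Smaller differences in the same direction were found for Hcn2 (0.99 ± 0.13, at least 1.6-fold), Cacng4 (0.95 ± 0.10, at least 1.3-fold), Trpc4ap (0.79 ± 0.19, 1.73-fold), Cacng5 (0.64 ± 0.12, at least 1.2-fold), Cacng7 (0.41 ± 0.13, 1.33-fold) and Cacnb1 (0.36 ± 0.11, 1.28-fold). Their adjusted p lay between 1.23e-06 for Cacng4 and 0.0202 for Cacnb1. In the other direction Trpv2 was 4.41-fold higher in BV2, with a difference of -2.14 ± 0.16 (adjusted p = 1.39e-08, excess -2.08 and -1.71). Cacnb1 missed the adjusted threshold when any 1 of 4 plates was left out (BV2 plate 1 or 4, N18 plate 1 or 2). Its differences were then 0.28 to 0.33 (limma, adjusted p from 0.0567 to 0.0795). Without BV2 plate 3 or N18 plate 2, the number of genes higher in BV2 fell from 10 to 6.

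**Figure D3:**
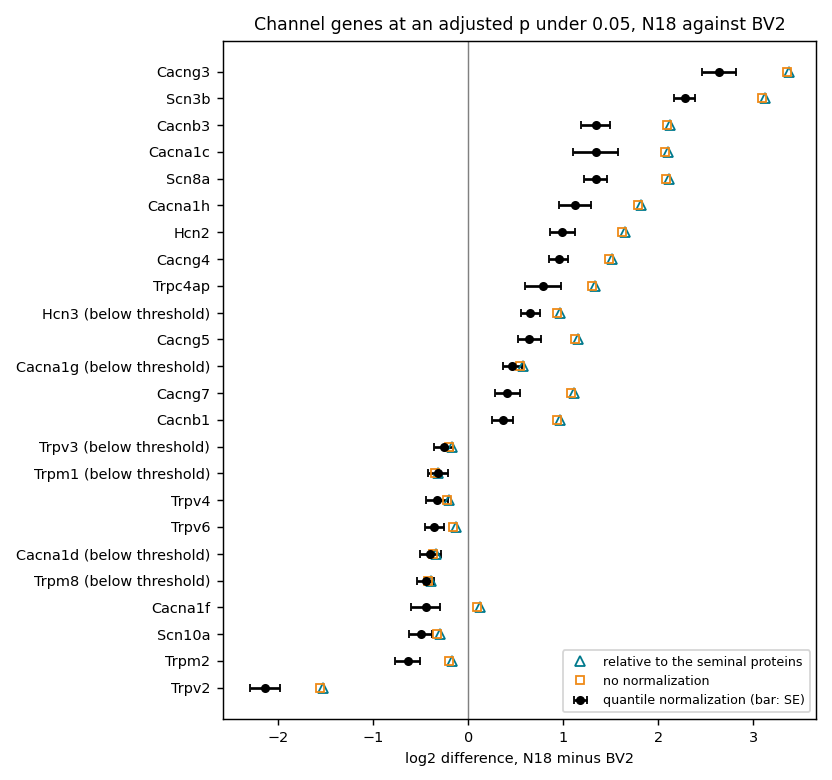
Log2 difference, N18 minus BV2, of 24 of the 25 channel genes at an adjusted p under 0.05, on the quantile scale (black, with SE), against the seminal proteins (triangles) and with no normalization (squares). The 14 genes on the right keep their side on the 3 scales, Trpv2 stands alone at the lower left, and Cacna1f crosses 0.

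Between the plates labelled AtT20 and BV2, 38 channel genes were higher on the plates labelled AtT20 (65.5%, against 47.0% of all genes and targets) and 3 were higher in BV2 (5.17%, against 26.6%). This split depended on the scale. It was 38 to 3 on the quantile scale, 11 to 19 against the seminal proteins and 55 to 1 without normalization. Among all genes and targets, 11808 were higher on the plates labelled AtT20 and 6687 in BV2 on the quantile scale. Against the seminal proteins these counts were 4413 and 12668, and without normalization 18762 and 2940. Of the 38 genes, 19 were above the threshold in neither line. On all 3 scales 6 called genes were higher on the plates labelled AtT20, namely Cacna1a, Cacnb1, Cacnb2, Cacnb4, Cacng4 and Trpc1, and Trpv2 was higher in BV2. The calls of Cacnb4 and Cacng4 on the plates labelled AtT20 each rested on 1 of 3 probes and were each kept under 3 of the 8 alternative settings. Cacnb2 differed by 2.12 ± 0.15 (limma, adjusted p = 2.46e-09, excess 1.89 and 1.41), at least 1.2-fold. Trpc1 differed by 1.99 ± 0.19 (adjusted p = 9.71e-08, excess 1.76 and 1.35), at least 1.1-fold. The excess of Cacna1a was 1.36 and 0.86, that of Cacnb4 1.25 and 0.98, that of Cacng4 1.16 and 0.81, and that of Cacnb1, called in both lines, 1.56 and 0.96. Trpv2 differed by -2.34 ± 0.16 (adjusted p = 1.67e-09, excess -2.57 and -3.11) and by -3.39 against the seminal proteins. No fold is given for it, since its level of 0.45 on the plates labelled AtT20 lay close to the threshold of 0.37 and its call there was kept under 2 of the 8 alternative settings. The plates labelled AtT20 had the narrowest spread of intensities, and its part in these differences was not tested.

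Between the plates labelled AtT20 and N18, 35 channel genes were higher on the plates labelled AtT20 (60.3%, against 48.6% of all genes and targets) and 8 were higher in N18 (13.8%, against 27.8%). The split was 35 to 8, 13 to 32 and 43 to 9 on the 3 scales. For all genes and targets it was 12211 to 6981, 4094 to 15255 and 15846 to 5012. On all 3 scales, 7 called genes were higher in N18, among them Scn3b, Cacng3, Trpc4ap, Cacna1c, Cacnb3 and Scn8a. Scn3b was higher in N18 by at least 2.6-fold (-2.47 ± 0.11, adjusted p = 8.18e-12, excess -2.72 and -3.07) and Cacng3 differed by -1.98 ± 0.18 (adjusted p = 3.96e-08, excess -2.23 and -3.27) and by -3.81 against the seminal proteins. Scn8a differed by only -0.34 ± 0.12 after quantile normalization (adjusted p = 0.0174), with overlapping plates on that scale, and by -1.91 relative to the seminal proteins. Its adjusted p rose to 0.0598 without AtT20 plate 4, 0.0569 without N18 plate 1 and 0.05 without N18 plate 3.

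In the other direction 6 called genes were higher on the plates labelled AtT20 on all 3 scales. The excess over all genes and targets was 1.89 and 1.63 for Cacnb2, 1.83 and 1.69 for Trpc1, 1.45 and 1.19 for Cacna1a, 1.30 on both scales for Cacnb4, 0.98 and 0.92 for Cacna2d1 and 1.62 and 0.95 for Trpv6. The fold bound was at least 1.2-fold for Trpv6 and under 1.1-fold for the others, whose levels lie near or below the N18 threshold. The call of Cacna2d1 on the plates labelled AtT20 rested on 1 of 3 probes and was kept under 2 of the 8 alternative settings. Trpm2, Cacnb1, Cacng4 and Scn4a were higher on the plates labelled AtT20 by 1.57, 1.43, 0.44 and 1.01 after quantile normalization. The signs of these 4 genes turned relative to the seminal proteins, to -0.07, -0.28, -0.98 and -0.40.

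**Figure D4:**
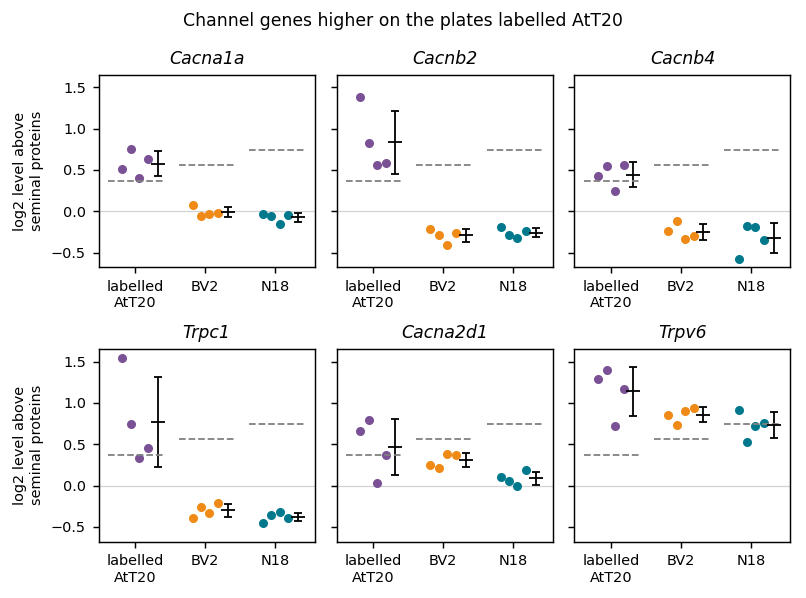
Log2 level above the seminal proteins of 6 channel genes on each plate (dots), with the mean and SD of the 4 plates (black) and the threshold of each line (dashed). For Cacna1a, Cacnb2, Cacnb4 and Trpc1 the plates labelled AtT20 lie above all BV2 and N18 plates, while for Cacna2d1 and Trpv6 they overlap with both BV2 and N18.

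Single probes were compared because a call can rest on 1 of them. For Cacng3 in N18 the 3 probes stood at 4.49, 4.29 and 4.50, and for Scn8a at 2.36, 2.29 and 2.14. For Scn3b they stood at 3.32, 4.14 and 2.90 in N18, and for Trpv2 at 3.50, 4.45 and 3.33 in BV2. The probes of these 4 genes were thus all well above the threshold in the line where the gene was highest. For Cacna2d2 in N18 they stood at -0.21, 3.65 and 0.63, so that 1 probe passed, as for Scn7a in all 3 lines. For Cacna1f in BV2 and N18 and for Trpm2 in all 3 lines, 2 of the 3 probes passed, and the call of Trpm2 was kept under all 8 alternative settings. Which splice forms each probe covers was not analysed.

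**Figure D5:**
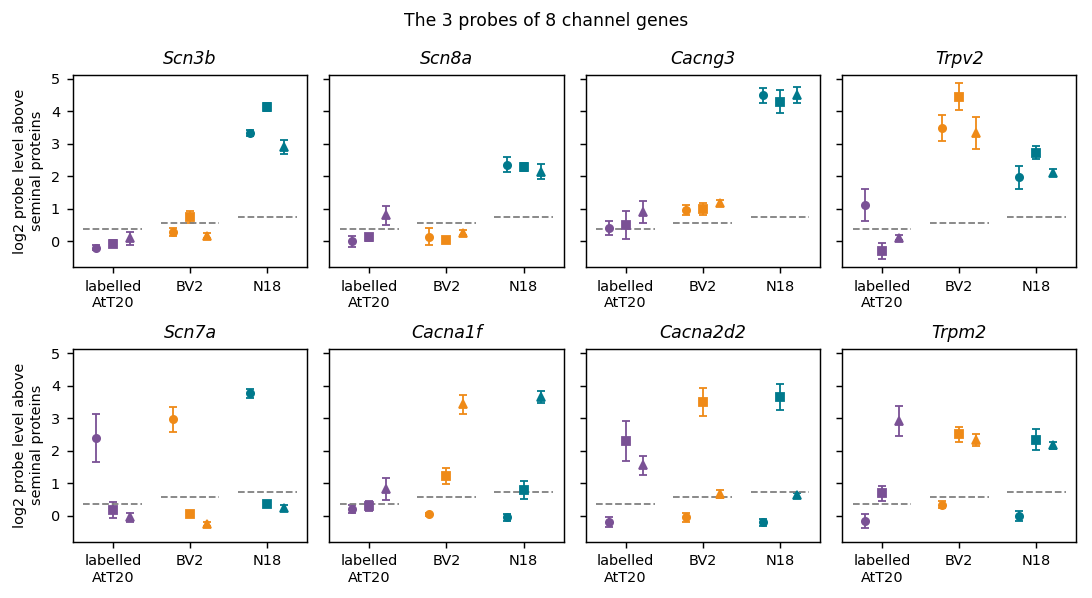
Mean and SD over 4 plates of the log2 level of each of the 3 probes (circle, square, triangle) of 8 channel genes in each line, with the threshold of the line (dashed). In the upper row all 3 probes pass in the line with the highest level, and in the lower row at least 1 probe stays near 0 in every line.

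Genes that act beside these channels were taken from 3 lists. Of 18 store-operated and organelle calcium channel genes, 15 were above the threshold in N18, 13 in BV2 and 8 on the plates labelled AtT20, where the shares over all genes and targets were 55.4%, 53.3% and 35.0%. Between N18 and BV2, 6 of the 18 were higher in N18 and 7 in BV2, against 19.0% and 21.9% of all genes and targets (median difference -0.18, beside -0.06 over all). Stim1, the calcium sensor of the endoplasmic reticulum, was 2.04-fold higher in N18 (1.03 ± 0.18, adjusted p = 0.000247), and Pkd2, a polycystin channel, at least 1.5-fold. Itpr2 and Itpr3, inositol trisphosphate receptors, were 2.35-fold and 1.77-fold higher in BV2. Of 12 calcium pump and exchanger genes, 10, 7 and 6 were above the threshold in the same order, 3 were higher in N18 and 1 in BV2 (median 0.11). Atp2b4, a plasma membrane calcium pump, was 3.82-fold higher in N18 (1.93 ± 0.15, adjusted p = 2.19e-08), Atp2c1 of the Golgi at least 1.4-fold, and the mitochondrial exchanger Slc8b1 lay -0.39 ± 0.14 from BV2 after quantile normalization but 0.09 relative to the seminal proteins.

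Of 31 channel partners and regulators, 21 were above the threshold in N18 and 15 in each of the others, to be read against the same shares of 55.4%, 53.3% and 35.0%. Between N18 and BV2, 15 of the 31 were higher in N18 and 4 in BV2, against the same 19.0% and 21.9% over all, with a median difference of 0.29 beside -0.06. Ank3, which encodes ankyrin-G, the anchor of sodium channels at the axon initial segment, was at 4.03 ± 0.12 in N18 and 0.80 ± 0.05 in BV2, a 5.58-fold difference (2.48 ± 0.12, adjusted p = 8.72e-11). Nedd4, a ubiquitin ligase, was 9.86-fold higher in N18 (3.30 ± 0.11, adjusted p = 5.07e-13). Camk2d, a calmodulin-dependent kinase, and Gem, a small GTPase that inhibits calcium channels, were at least 3.7-fold and 3.2-fold higher in N18. These 4 differences passed on all 3 scales.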

How the data were processed

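The 12 arrays (4 plates each of cells labelled AtT20, BV2 and N18) carried 72000 probes of 60 bases from a mouse gene catalog of build mm8. The deposited values are log2 Cy3 intensities, which the authors made from GenePix scans through NimbleScan. Their methods name no background subtraction or normalization, and probes of a target are still separate. Median log2 intensity per array was 10.85 to 11.50 (AtT20), 9.90 to 10.28 (BV2) and 10.10 to 10.54 (N18). The number of arrays, 4 per line, limits precision.

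Symbols were found for 17780 of 25631 targets (69.4%) through their transcript identifiers. A target's value is the log2 of the linear mean of its probes, a gene's value the mean of its targets (3 members had several), and the mean of the 10 seminal proteins that the study used as its zero was subtracted on each plate. Line differences come from lmFit and eBayes with a trend (limma 3.58.1, R 4.3.3) on all 12 arrays after quantile normalization, with Benjamini-Hochberg adjustment over 25128 genes and targets and an adjusted p under 0.05. The fit was tested on simulated data for N18 against BV2 only, with far fewer changed genes than differed here. The compressed intensities of the plates labelled AtT20 were not simulated. For a gene under the threshold in the lower line, the fold is a bound against that threshold, the smallest over 3 scales, rounded down.

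Genes named with values on every plate are, per pair of lines, at most 10 with the largest difference among those that passed, were above the threshold in 1 of the lines and did not overlap after quantile normalization, and the 3 of highest level per line. From each list outside the members at most 4 genes with the largest difference between N18 and BV2 are named. Rest was added for the motif search, and Cacna2d1 is given by plate outside this rule, chosen after its values were seen. The members and lists were chosen with earlier results of these data known. The lists are markers of microglia, neuroblastoma, corticotrophs, muscle and fibroblasts, store-operated and organelle channels, pumps and exchangers, and channel partners. Alternatives (8 for the call, 9 for the comparisons, and each plate left out) are given at the end. Python 3.11.15 with matplotlib 3.10.9, numpy 2.4.6 and pandas 2.3.3 was used for tables and figures. A few genes and a sequence are left out of the text and plots, though counts include those genes.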

Additional observations from a re-analysis of the deposited data

Results flagged for a closer look

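Of 40 gene and line groups of 4 plates that were checked for a plate far from the others, 2 stood out, both in Cacna1f, and chance alone gives about 1 in 20. On BV2 plate 2 the level of Cacna1f was 1.87, while the other 3 plates lay between 2.33 and 2.40. On N18 plate 2 it was 2.10, while the others lay between 2.41 and 2.47. Its 3 probes disagreed in both lines.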

How the results depend on the processing

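Signal over background and 4 plates per line limit all values, and the causes of the changes below were not tested. For the number of channel genes above the threshold, the median of probes gave 11 on the plates labelled AtT20 in place of 21, olfactory receptor genes as controls 10, every plate above its threshold 13 and at least 2 probes 11. In BV2, olfactory receptor genes as controls gave 8 in place of 18. Leaving out single plates gave counts of 20 to 24 (AtT20), 17 to 21 (BV2) and 24 to 25 (N18).

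For N18 against BV2, a difference of at least 1 left 6 of 15 genes higher in N18 and 1 of 10 higher in BV2. The latter count was 1 without normalization, 5 relative to the seminal proteins, 6 with only genes above the threshold and 23 with only the 8 arrays of the pair. With plates left out the counts were 13 to 16 and 6 to 14. For AtT20 against BV2, the 38 genes higher on the plates labelled AtT20 became 11 relative to the seminal proteins, 23 with only genes above the threshold and 12 with a difference of at least 1. The 3 higher in BV2 became 1 without normalization, 19 relative to the seminal proteins, 8 with the median of probes, 6 with the mean of their log2 values and 1 with a difference of at least 1. With plates left out the counts were 32 to 40 and 2 to 5 (the 5 without AtT20 plate 1). For AtT20 against N18, the 35 became 13, 18 and 13 under the same 3 settings, and the 8 higher in N18 became 32 relative to the seminal proteins, 14 with the median and 3 with a difference of at least 1. With plates left out they were 30 to 35 and 7 to 10.

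Relative to the seminal proteins the sign turned for Cacna1f (N18 against BV2, 0.12, and 0.09 without normalization), for Cacna1h (-0.03), Cacnb3 (-0.08), Cacng3 (-0.43) and Trpm2 (-0.25) in AtT20 against BV2, and for Cacnb1 (-0.28), Cacng4 (-0.98), Scn4a (-0.40) and Trpm2 (-0.07) in AtT20 against N18. With the median of probes it turned in AtT20 against BV2 for Cacna1f (0.02) and Trpm2 (-0.32). Of the values of named genes over all settings, 395 of 420 kept their side of the threshold, and their direction where they had passed it, for N18 against BV2, 384 of 420 for AtT20 against BV2 and 397 of 420 for AtT20 against N18.

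The replicate numbers of the labels did not pair the plates, since the deviations of same-numbered plates correlated at -0.11 to 0.32 (12 pairs) and those of other pairs at -0.49 to 0.36. With the number as a replicate block the counts were 15 and 9 for N18 against BV2, 39 and 3 for AtT20 against BV2, and 34 and 8 for AtT20 against N18, and no named gene changed its call.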
